A study of Mus musculus with 6 samples.

Results

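Mitochondrial ribosomal proteins, here the genes whose symbol is Mrpl or Mrps followed by a number, were examined in growth plate cartilage of control and Idh1 mutant mice. In all, 78 of the 46078 genes in the count tables had such a symbol, 48 of them named for the large subunit of the mitochondrial ribosome (Mrpl) and 30 for the small subunit (Mrps). The members were picked by symbol alone, but this family was chosen with earlier results of these data known. Of the 78, 76 had enough reads to be tested, 47 of the large and 29 of the small subunit.

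RNA was sequenced from 3 control and 3 mutant libraries of E18.5 growth plates, dissected at the distal end of the femur and the proximal end of the tibia. The genotype of the mutants was Col2a1-Cre with Idh1 LSL/+, an Idh1 allele that encodes an arginine-to-glutamine mutant behind a lox-stop-lox cassette, and that of the controls was Idh1 LSL/+ alone. The targeted allele was thus present in both groups, and the Cre transgene itself also separated them. Cre was driven by Col2a1, a collagen gene of chondrocytes, and which cells of the dissected tissue had recombined the allele was not measured here. The text on animal care in the labels also gives an age of 2 months, and the labelled stage of E18.5 was used here. The labels do not say whether libraries of a group came from separate animals, and p-values then measure only the spread between these libraries.

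The mitochondrial ribosome translates the few proteins that mitochondrial DNA encodes, all of them core subunits of the respiratory chain and ATP synthase. Its ribosomal RNAs come from mitochondrial DNA, while its proteins are encoded in the nucleus, made in the cytosol and imported. Some of these proteins descend from those of bacterial ribosomes, and others were added in mitochondria. Idh1 acts in the cytosol and peroxisomes, and its tumour mutants convert 2-oxoglutarate to 2-hydroxyglutarate. Growth plate chondrocytes live in cartilage without vessels and are known to rely strongly on glycolysis.

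The members lie scattered over the genome, and some features of their start sites were more frequent among them than among tested coding genes. The 76 tested members were on 17 chromosomes, with 10 on chromosome 11, 8 on chromosome 17 and 0 on X or Y. An opposite-strand coding gene started within 1000 bases of the start of 29 of the 76 (38.2%), against 2012 of 14360 tested coding genes (14.0%). Several partners also serve mitochondria, such as Sars2, the mitochondrial seryl-tRNA synthetase, beside Mrps12, and Peo1, the mitochondrial DNA helicase, beside Mrpl43. Mrps11 and Mrpl46 are partners of each other, and their RefSeq start sites lay 42 bases apart on chromosome 7.

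RefSeq promoter windows of GRCm38.p6, from 250 bases before to 50 bases after the start, were found for 67 of the 76 tested members. Both strands were searched for GCGCATGCG, the palindrome-like core bound by NRF1, a factor known for nuclear genes of mitochondria. Both strands were searched as well for CCGGAAGT, bound by ETS factors such as GABPA, and for AAGATGGCG, bound by YY1. None of these motifs contains another, and each was counted separately. The NRF1 motif was in 7 members (10.4%), against 3.81% of the tested coding genes and 1.95% of all genes with a window. The ETS motif was in 12 members (17.9%), against 8.06% and 4.31% in the same order. The YY1 motif was in 8 members (11.9%), against 3.19% and 1.64%. At least 1 of the 3 was in 26 members (38.8%), against 14.1% of the tested coding genes. The share was 43.9% (18 of 41) in the large and 30.8% (8 of 26) in the small subunit, and the difference was not tested. The median CpG ratio of the windows (CpG count over that expected from C and G) was 0.818 in members and 0.734 in tested coding genes. Shares were not matched for this ratio or for RNA level. A match describes these letters only, and binding was not measured.

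**Figure D1:**
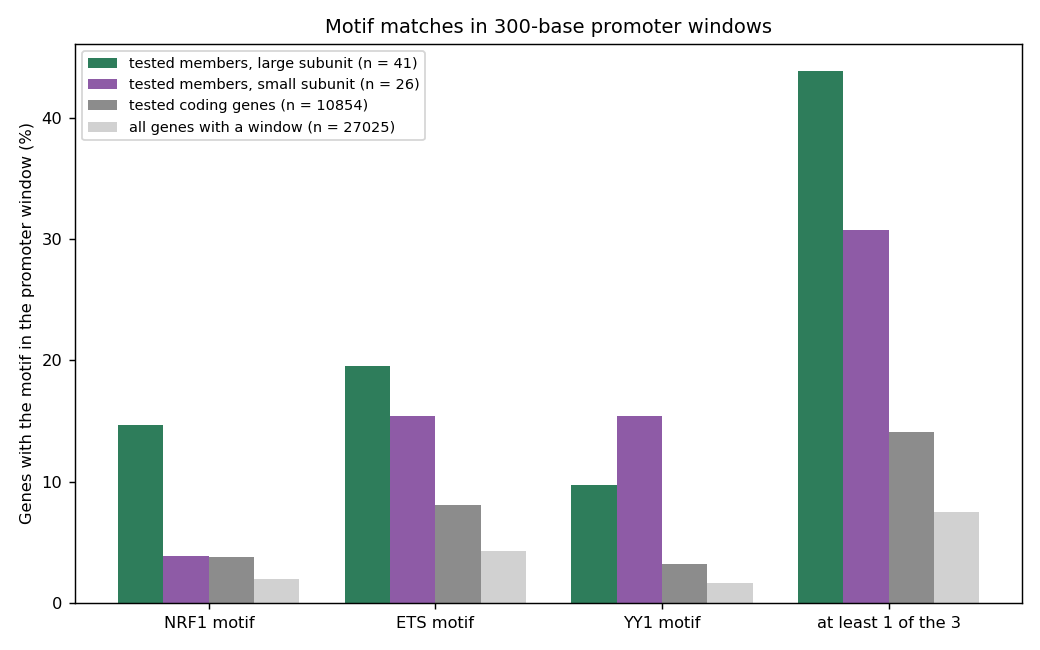
Percent of genes with each motif in the 300-base promoter window, for tested large subunit members (41 genes), tested small subunit members (26), all tested coding genes (10854) and all genes with a window (27025). The bars of both subunits for at least 1 of the 3 motifs (43.9% and 30.8%) stand above the 14.1% of the tested coding genes, while for NRF1 the small subunit bar (3.85%, 1 gene) is close to their 3.81%.

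For each motif 1 window is shown, taken from the member of highest control level that holds it in its single window and with the motif in capitals. Mrpl10 encodes a protein at the base of the stalk that recruits translation factors, and its window is chr11:97041332-97041631 on the forward strand. Mrpl52 and Mrpl42 encode proteins of the large subunit that bacteria lack, with windows at chr14:54426659-54426958 on the forward strand and at chr10:95501900-95502199 on the reverse strand. For Mrpl10 and Mrpl52 the motif lies on the strand opposite to the printed one, so that the capitals show its reverse complement. The Mrps11 window (chr7:78782881-78783180, forward strand) follows, because it holds the starts of a small and a large subunit gene, Mrps11 and Mrpl46. It has the YY1 motif on the reverse strand, in a part that lies outside the window counted for Mrpl46.
Mrpl10: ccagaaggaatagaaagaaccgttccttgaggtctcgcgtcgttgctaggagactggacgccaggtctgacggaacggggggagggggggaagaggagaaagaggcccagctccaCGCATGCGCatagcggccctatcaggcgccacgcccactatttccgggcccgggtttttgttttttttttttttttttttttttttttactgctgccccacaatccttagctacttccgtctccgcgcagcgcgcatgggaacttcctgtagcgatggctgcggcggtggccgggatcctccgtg
Mrpl52: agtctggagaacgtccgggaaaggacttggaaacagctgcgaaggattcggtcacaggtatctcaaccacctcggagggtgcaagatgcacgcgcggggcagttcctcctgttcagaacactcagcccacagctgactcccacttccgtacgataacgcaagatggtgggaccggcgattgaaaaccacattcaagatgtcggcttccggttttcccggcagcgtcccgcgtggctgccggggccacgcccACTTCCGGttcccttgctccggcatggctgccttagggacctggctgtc
Mrpl42: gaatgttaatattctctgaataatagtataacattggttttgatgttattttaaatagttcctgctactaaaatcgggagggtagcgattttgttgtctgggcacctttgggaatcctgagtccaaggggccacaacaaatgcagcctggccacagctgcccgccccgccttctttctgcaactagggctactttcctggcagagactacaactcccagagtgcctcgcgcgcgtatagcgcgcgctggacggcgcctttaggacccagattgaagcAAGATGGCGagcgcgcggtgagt
Mrps11: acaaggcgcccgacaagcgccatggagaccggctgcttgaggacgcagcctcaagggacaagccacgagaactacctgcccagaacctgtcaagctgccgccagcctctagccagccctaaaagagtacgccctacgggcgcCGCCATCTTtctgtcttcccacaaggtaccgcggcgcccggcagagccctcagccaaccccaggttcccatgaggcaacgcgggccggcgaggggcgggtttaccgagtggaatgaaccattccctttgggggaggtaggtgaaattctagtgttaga

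Library totals were between 23445687 and 30415773 counts, and 3 counts, taken as the detection floor, equalled 0.0978 to 0.127 CPM (counts scaled to each library's total times its TMM factor, and covering counting error only). Idh1, the targeted gene, had 37.2, 39.1 and 65.3 CPM in controls and 47.5, 47.7 and 56.2 CPM in mutants, and its total count did not separate the groups. Xist had 26356 counts in mutant 3 and between 0 and 13 in the others, and genes of the Y chromosome had 512 counts there against 4193 to 5829, so that mutant 3 stood apart in sex-linked genes. None of the 9 cartilage markers was called different. Their log2 fold changes (mutant against control) were above 0 for 3 and below 0 for 6, with a median of -0.177. The 9 summed to 3368 to 6766 CPM in controls and 5210 to 7375 CPM in mutants. The largest part of these sums was Col2a1, which had a log2 fold change of 0.447, so that the sums do not show the direction of most markers. Cartilage markers varied widely within a group, with a median SD of 0.457 on the log2 scale against 0.153 over all tested genes. Matn1, for example, had 83.1, 104 and 20.6 CPM in controls and 99.3, 38.9 and 73.5 CPM in mutants. RNA of other tissues was present as well, and muscle markers summed to 16698 to 26162 CPM over the 6 libraries, with 0 of 11 called. In bulk tissue, fewer cells of a type and less RNA per cell cannot be told apart.

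Mitochondrial ribosomal protein RNA was detected in both groups at a moderate level. All 78 members together held 0.206% ± 0.00812 (SD, n = 3) of the counts in controls and 0.210% ± 0.00985 in mutants. Of the 76 tested members, 60 had a mean level at or above the median of all tested genes (17.3 CPM). Per kilobase of exon (RPKM, from TMM-scaled CPM), levels in controls ran from 2.78 to 72.3 with a median of 15.1 in the large subunit. They ran from 2.97 to 47.8 with a median of 8.56 in the small subunit. A mitochondrial ribosome is known to hold nearly every one of these proteins in a single copy, while their RNA levels by this measure spanned 26.0-fold in the large and 16.1-fold in the small subunit. In CPM, which is not divided by length, the control means spanned 4.54-fold and 8.85-fold, so that these spans depend on the exon length used.

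**Figure D2:**
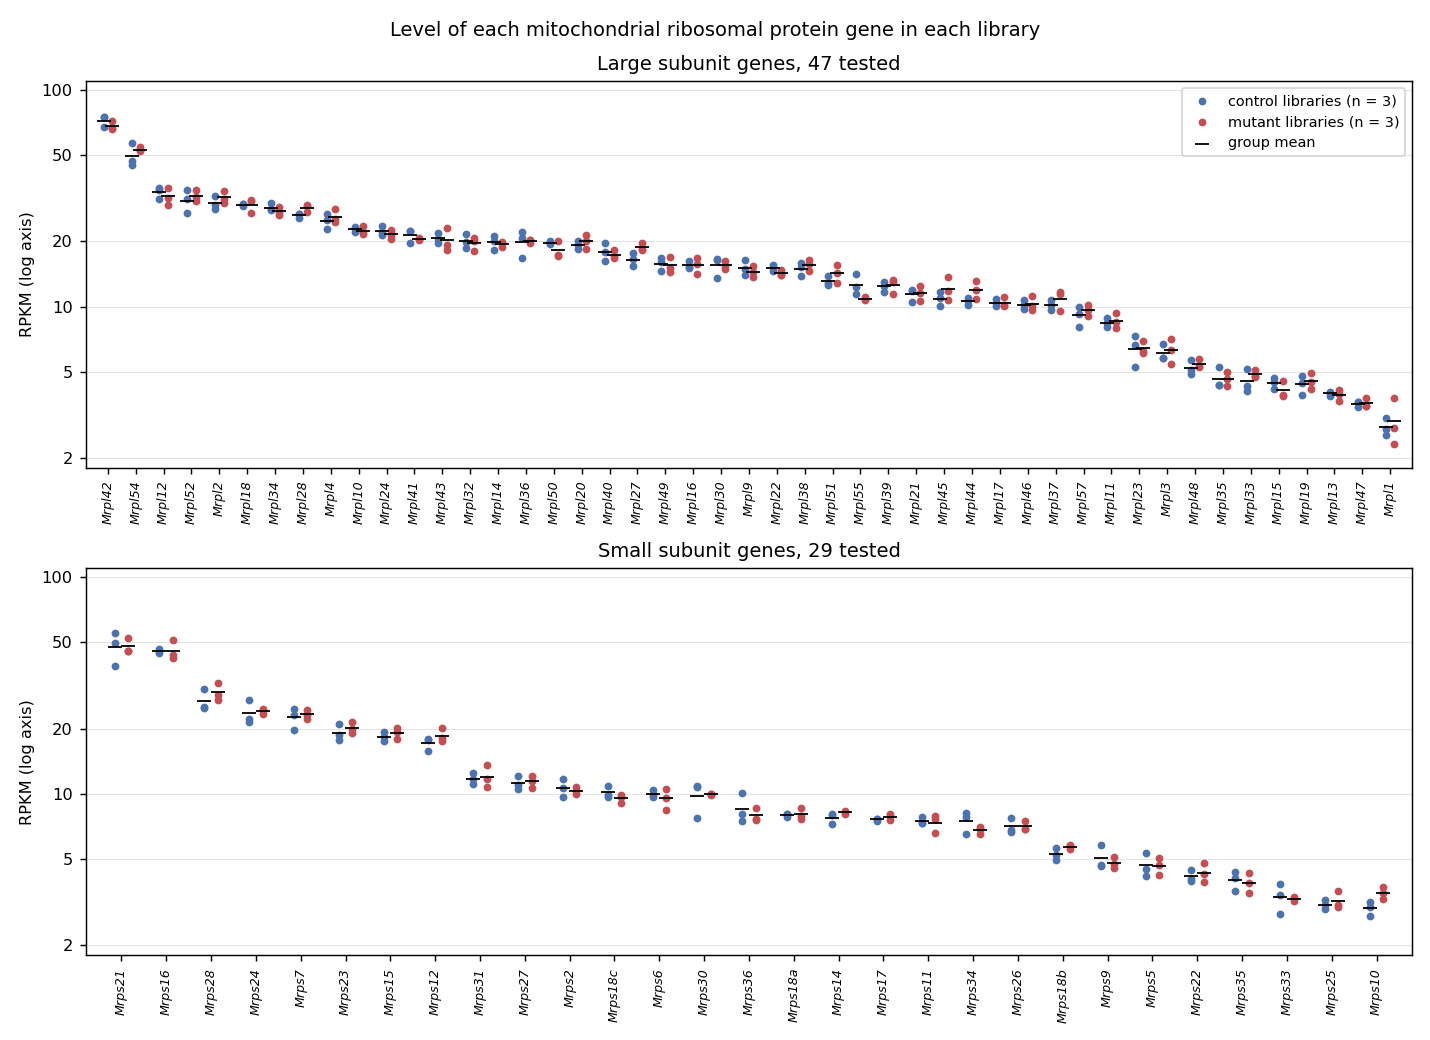
RPKM of the 47 large and 29 small subunit genes tested, on a log axis, with 1 point per library (3 control, 3 mutant) and a dash at each group's mean. Genes are ordered by control mean, from Mrpl42 (72.3) to Mrpl1 (2.78) and from Mrps21 (47.8) to Mrps10 (2.97), and control and mutant points lie on one another for nearly all genes.

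In the large subunit, Mrpl42 had the highest level per length, at 67.3, 74.7 and 74.9 RPKM in controls and 66.7, 71.8 and 66.0 RPKM in mutants. Mrpl54, also a protein added in mitochondria, followed with 45.2, 56.9 and 47.1 RPKM in controls and 54.5, 52.7 and 52.1 RPKM in mutants. The control libraries of Mrpl42 lay above all those of Mrpl54, so that the order of these neighbours by this length exceeded their spread between libraries. Mrpl12, the stalk protein present in several copies per ribosome, had 33.8 ± 1.96 RPKM (SD, n = 3) in controls and 32.3 ± 2.91 in mutants. Mrpl52 had 30.9 ± 3.71 and 32.5 ± 2.02 RPKM, and its spread overlapped that of Mrpl12.

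At the low end of the large subunit stood Mrpl1, a protein of the mobile stalk beside the exit site, with 3.05, 2.57 and 2.72 RPKM in controls and 2.76, 3.78 and 2.32 RPKM in mutants. Mutant 2 held the highest and mutant 3 the lowest of these values, and the control values lay between them. Mrpl47, which sits near the polypeptide exit, had 3.56 ± 0.104 RPKM (SD, n = 3) in controls and 3.58 ± 0.197 in mutants. Mrpl13 had 3.98 ± 0.0801 RPKM in controls and 3.92 ± 0.219 in mutants. Mrpl19 had 4.395 ± 0.443 RPKM in controls and 4.53 ± 0.384 in mutants. Its control 2 (3.92 RPKM) lay among the controls of Mrpl13, while its other libraries were above those of Mrpl13.

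In the small subunit, Mrps21 led with 38.7, 55.0 and 49.5 RPKM in controls and 45.6, 52.5 and 45.8 RPKM in mutants. Its control 1 was the lowest library, and Mrps16, with 45.6 ± 0.841 RPKM (SD, n = 3) in controls and 45.7 ± 4.69 in mutants, was not separated from it. Mrps28 had 26.9 ± 3.17 RPKM in controls and 29.4 ± 2.68 in mutants. Mrps24, a protein at the channel where messenger RNA enters, had 23.5 ± 3.07 RPKM in controls and 24.0 ± 0.574 in mutants, and its spread overlapped that of Mrps28. The lowest were Mrps10, Mrps25 and Mrps33, with 2.97 ± 0.212, 3.08 ± 0.149 and 3.35 ± 0.542 RPKM in controls, and neighbours in this order lay within their spread. Mrps35 came next, with 3.55, 4.07 and 4.38 RPKM in controls and 3.87, 4.31 and 3.47 RPKM in mutants.

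The order of the members was nearly the same in both groups, with a Spearman correlation of 0.996 between control and mutant means over the 76 genes, which share their lengths. It depended more on the length used. Counting ignored strand and left out reads that fell on 2 genes, and 26 of the 76 shared exon bases with another gene, 21 of them only with genes of the opposite strand. Per unshared exon base, the correlation with the first order was 0.948, and Mrps34, with 77.8% of its exon bases shared, moved from 7.495 to 33.7 RPKM and from rank 20 to rank 3 of the small subunit. With the length of 1 principal transcript per gene, the correlation was 0.653, and Mrps10 moved from 2.97 to 23.5 RPKM. By that length Mrpl33 moved from 4.52 to 69.3 RPKM in controls, and Mrpl52 (82.0) lay above Mrpl42 (72.3). Levels of different members can therefore be ranked only loosely, while the comparison of groups for 1 gene does not use its length.

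Of the members, 2 rows had too few counts to be tested. Mrpl53 (chr6:83109095-83109939), a protein added to the large subunit in mitochondria, had 6, 7 and 1 counts in controls and 3, 3 and 8 counts in mutants. Of its exon bases, 87.1% also belong to Ccdc142 on the same strand, and reads there were counted for neither gene, so that its counts came from few bases. Over the 95 bases it does not share, its level was 1.67 RPKM in controls. Reads of 50 bases that reached from these into shared bases were left out too, so that this value can be too low. It was therefore not ranked against tested members, and what part of the low count came from lost reads was not tested. The second row of Mrps23 lies on an alternative patch sequence and had 0 counts in all 6 libraries. The primary row of Mrps23, on chromosome 11, had 19.2 ± 1.67 RPKM (SD, n = 3) in controls and 20.1 ± 1.19 in mutants.

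No member was called different between mutants and controls. In the quasi-likelihood test of edgeR, with p adjusted after Benjamini and Hochberg over 16813 genes, 0 of the 76 members passed an adjusted p under 0.05, where 0.190% of all tested genes (32) did. DESeq2 called 0 members as well, against 1.15% of all genes, and limma-voom called 0. At an unadjusted p under 0.05, edgeR found 1 member (1.32%) against 8.64% of all genes, limma-voom found 1 and DESeq2 found 0. The intervals give the size of change that these libraries still allow in RNA of the whole dissected tissue, which also held muscle RNA. A change within the recombined cells alone was not measured, and the intervals do not bound it. The 95% interval lay inside a 1.5-fold change in either direction for all 76 tested members and inside a 1.25-fold change for 59 of them, and it left out 0 for 1 member.

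**Figure D3:**
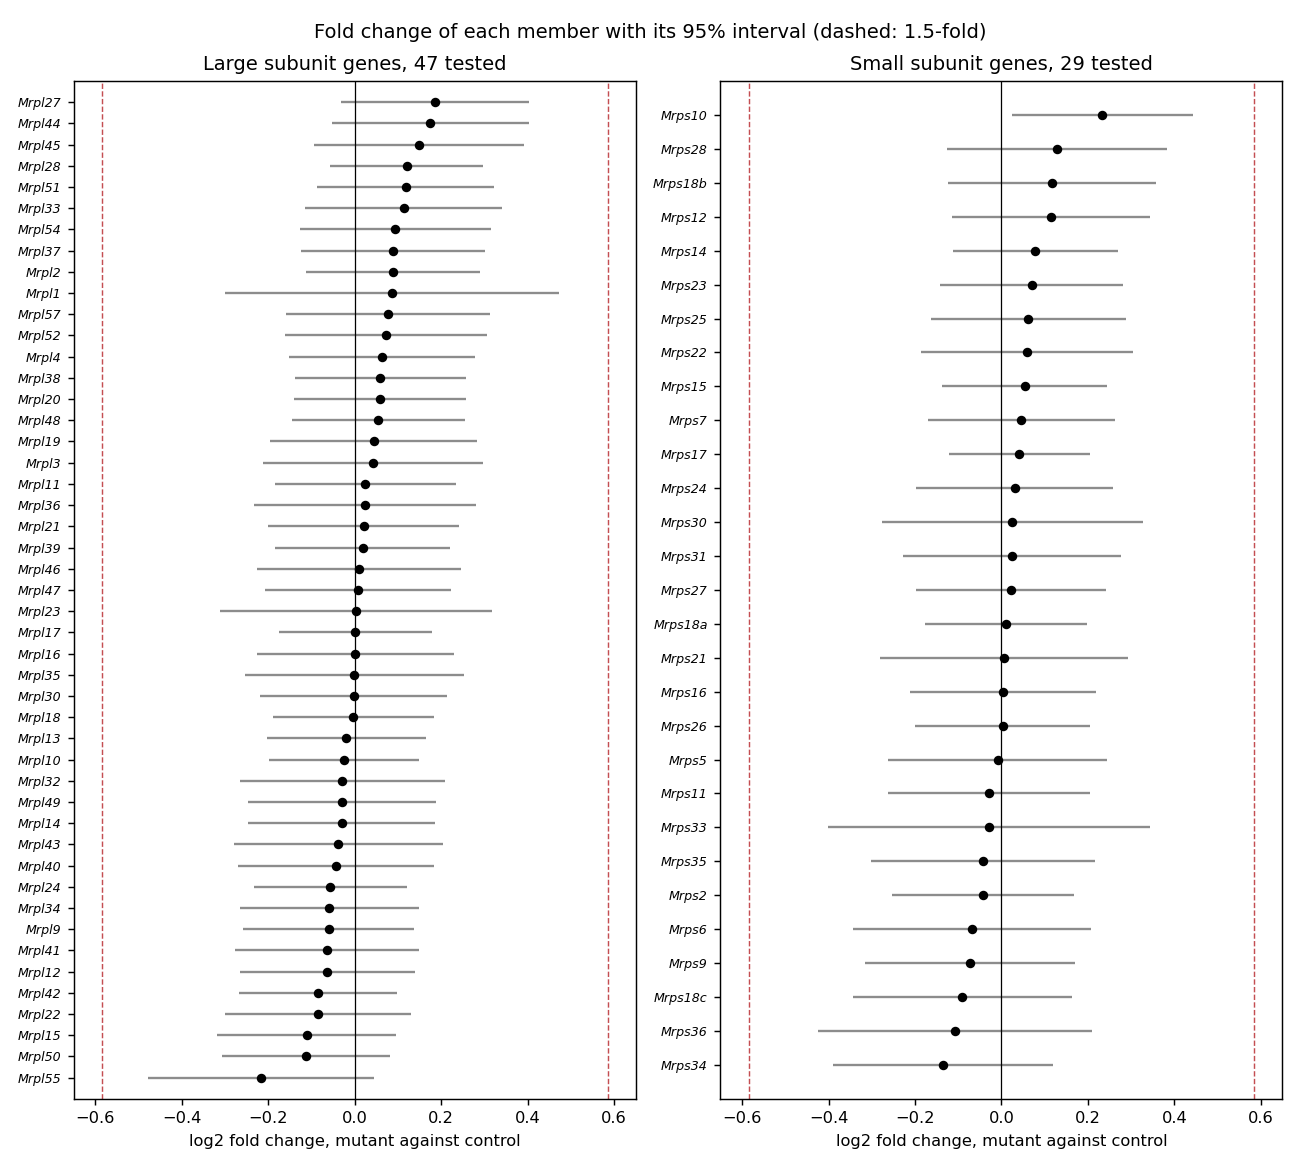
Log2 fold change (mutant against control, edgeR) of the 47 large and 29 small subunit genes tested, with the 95% interval as a line and dashed lines at a 1.5-fold change. Points run from -0.22 (Mrpl55) to 0.23 (Mrps10), and the interval of Mrps10 alone leaves out 0.

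Fold changes of the members lay closer to 0 than those of genes in general. The median log2 fold change was 0.010 over the 76 members and -0.0026 over all genes tested, with 46 members above 0 and 30 below. The median of the absolute values was 0.056 for members, 0.084 for the 11300 genes at or above the lowest tested member's level, and 0.116 for all tested genes. No member passed an absolute log2 fold change of 0.25, a size set after the values were seen, against 24.3% of all tested genes and 10.4% of those at or above the lowest member's level. The members also varied less between libraries of a group, with a median SD of 0.104 on the log2 scale against 0.121 over those 11300 genes. Non-overlapping groups were found for 3 members with mutants higher (3.95%, against 6.83% of all genes) and for 1 member with mutants lower (1.32%, against 7.62%).

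**Figure D4:**
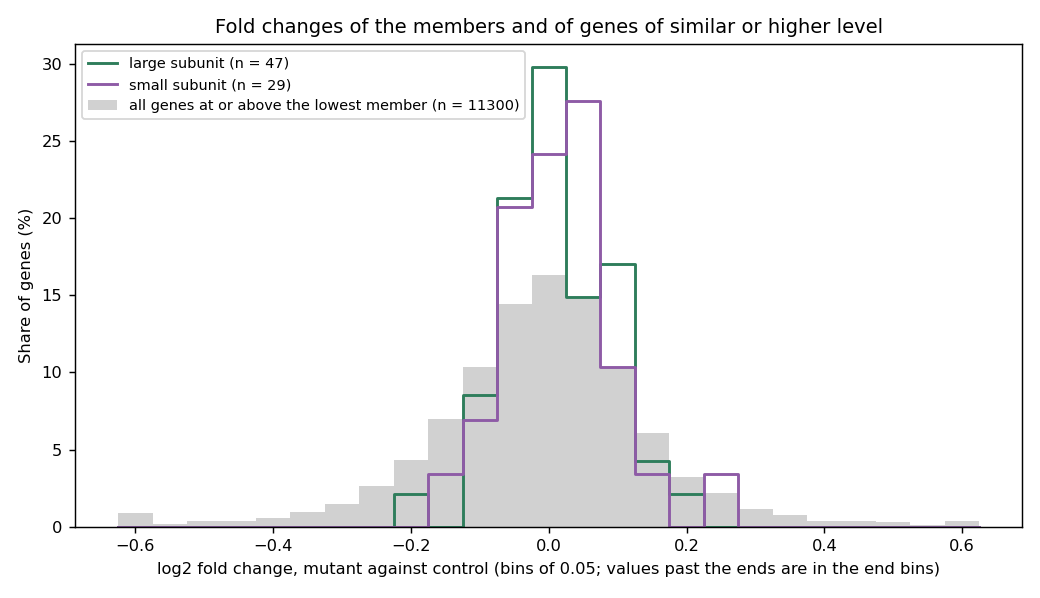
Share of genes by log2 fold change (mutant against control, bins of 0.05) for 47 large subunit members, 29 small subunit members and the 11300 tested genes at or above the lowest member's level. The members' outlines are narrower than the grey bars. No member lies past 0.25 in either direction, a size set after the values were seen, against 10.4% of the grey genes.

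The gene with the lowest p was Mrps10 (ENSMUSG00000034729, chr17:47368887-47381417, forward strand), which encodes a protein of the small subunit head. Its level was 24.2, 22.1 and 25.5 CPM in controls and 29.9, 28.1 and 26.5 CPM in mutants. All 3 mutants were above all 3 controls, with mutant 3 closest to them. The log2 fold change was 0.23 (SE 0.09, 95% interval 0.024 to 0.44), with an unadjusted p of 0.0327 and an adjusted p of 0.524 from edgeR. It thus failed the adjustment over all genes.

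The large subunit genes Mrpl27 and Mrpl28, both with bacterial counterparts, were also higher in every mutant than in any control. Mrpl27 had 15.2, 17.3 and 16.3 CPM in controls and 19.3, 18.1 and 18.1 CPM in mutants (log2 fold change 0.19, adjusted p = 0.653 from edgeR). Mrpl28 had 32.6, 34.2 and 34.0 CPM in controls and 37.6, 37.3 and 34.7 CPM in mutants (0.12, adjusted p = 0.746 from edgeR). In both genes the gap between the groups was smaller than the range within a group, and neither passed the test.

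Mrpl44, whose protein has an RNase III-like fold, and Mrpl45, which faces the inner membrane at the exit tunnel, completed the upper end. Their log2 fold changes were 0.17 and 0.15 (adjusted p = 0.699 and 0.782 from edgeR), and the groups overlapped. For Mrpl44, the controls had 18.1, 16.7 and 17.5 CPM and the mutants 17.9, 21.6 and 19.5 CPM. For Mrpl45, the controls had 28.4, 26.1 and 30.2 CPM and the mutants 35.5, 30.5 and 27.8 CPM, so that mutant 1 was high and mutant 3 lay among the controls.

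At the lower end, Mrpl55 (ENSMUSG00000036860, chr11:59202486-59206134, forward strand) had 11.7, 14.6 and 12.6 CPM in controls and 11.01, 11.4 and 11.1 CPM in mutants. It was the only member whose mutants were all below the controls, and control 1 lay within 1 CPM of them. Its log2 fold change was -0.22 (SE 0.12, 95% interval -0.48 to 0.045, adjusted p = 0.669 from edgeR). Mrpl50, Mrpl15, Mrps34 and Mrpl42 followed with log2 fold changes of -0.11, -0.11, -0.13 and -0.085, and the groups of each overlapped. Mrpl50 had 42.5, 41.4 and 41.2 CPM in controls and 36.4, 42.6 and 36.7 CPM in mutants, so that mutants 1 and 3 were low and mutant 2 was not. The same libraries stood low for Mrpl15, with 35.4, 39.7 and 37.9 CPM in controls and 33.3, 38.5 and 32.8 CPM in mutants.

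By subunit, the summed RNA of each part of the ribosome differed between the groups by less than its spread between libraries. Large subunit members summed to 1327, 1413 and 1397 CPM in controls and to 1404, 1451 and 1327 CPM in mutants (1379 ± 46.1 against 1394 ± 62.6, SD, n = 3). Small subunit members summed to 652, 721 and 687 CPM in controls and to 695, 729 and 673 CPM in mutants (686 ± 34.4 against 699 ± 28.2). Mutant 2 held the highest sum of both subunits, and control 1 the lowest of both. For the large subunit, mutant 3 was as low as control 1. The ratio of large to small was 2.01 ± 0.0424 in controls and 1.99 ± 0.0245 in mutants, so that libraries with more of one subunit's RNA had more of the other's too.

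**Figure D5:**
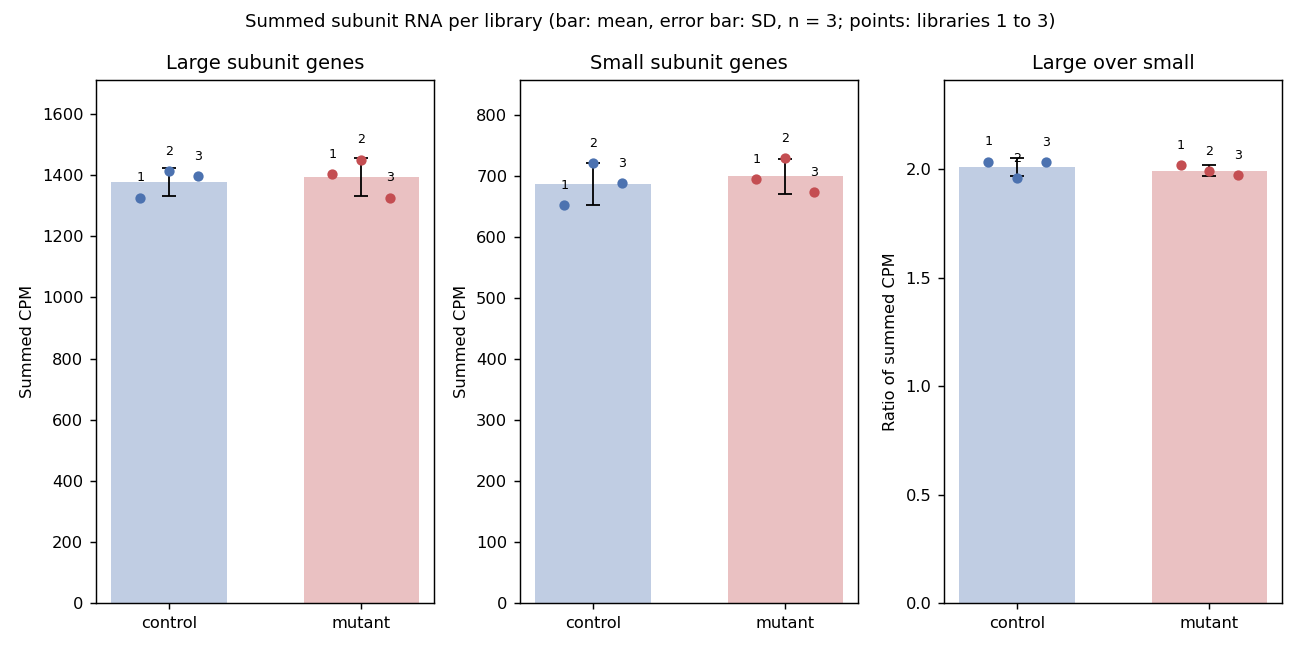
Summed CPM of large and small subunit genes and their ratio in each library, with bars at the mean, error bars of 1 SD (n = 3) and numbered points for the libraries. The bars of control and mutant differ by less than the error bars (1379 against 1394, 686 against 699, and 2.01 against 1.99).

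This common movement was also seen gene by gene. Mutant 2 was above the gene's mean over the 6 libraries for 60 of the 76 members and the highest library for 28. Control 1 was above that mean for 20 members and mutant 3 for 19, and they were the lowest library for 27 and 21. The range of the summed levels within each genotype was also wider than the difference between the genotypes' means. The median log2 fold change was 0.0074 over 47 large subunit genes and 0.023 over 29 small subunit genes. Without control 1 these medians were -0.016 and -0.018, and without mutant 2 they were -0.015 and -0.014, so that even their sign rested on 1 library.

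Members with a bacterial counterpart and those added in mitochondria were also described apart. In the large subunit, the median log2 fold change was 0.0014 over 30 genes with a counterpart and 0.055 over 17 without. In the small subunit it was 0.018 over 16 genes and 0.023 over 13. No gene of the 4 groups was called, and single genes ranged from -0.22 to 0.23. The 50 members that share no exon bases with another gene had a median of 0.014, and the 26 that do had 0.0090.

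Symbol and place in the ribosome differ for some members. Mrps18a and Mrps30 were named for the small subunit, but their proteins sit in the large one, and Mrps36 is an adaptor of the 2-oxoglutarate dehydrogenase complex of the tricarboxylic acid cycle and not a ribosomal protein. With both moved to the large subunit and Mrps36 left out, the ratio of large to small CPM was 2.26 ± 0.0645 (SD, n = 3) in controls and 2.24 ± 0.0281 in mutants. The paralogs Mrps18a, Mrps18b and Mrps18c, of which b and c occupy the small subunit, had 29.5 ± 0.502, 11.01 ± 0.697 and 10.9 ± 0.686 CPM in controls. In the mutants they had 29.7 ± 1.82, 11.9 ± 0.230 and 10.3 ± 0.476 CPM. Their log2 fold changes were 0.0098, 0.12 and -0.091, none past the test, and the groups of each overlapped.

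Mrps30 had 17.0, 12.4 and 17.3 CPM in controls and 15.9, 15.7 and 15.8 CPM in mutants. The mutants were nearly equal and lay between control 2 and controls 1 and 3, so that the log2 fold change of 0.025 became -0.11 without control 2. Mrps36 had 9.51, 12.9 and 10.3 CPM in controls and 10.97, 9.74 and 9.70 CPM in mutants. Its log2 fold change was -0.11 (SE 0.14, adjusted p = 0.899 from edgeR), and it was 0.038 without control 2, the highest library. Ict1, a peptidyl-tRNA hydrolase of the large subunit whose current symbol is Mrpl58, fell outside the symbol rule and had a log2 fold change of 0.11 (adjusted p = 0.799 from edgeR).

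Proteins of the mitochondrial ribosome with other names were read from a list. Dap3, Chchd1 and Ptcd3, all of the small subunit, had log2 fold changes of 0.078, 0.075 and 0.075. Aurkaip1, of the small subunit, had -0.15 and Gadd45gip1, of the large subunit, had -0.012. None of the 5 was called (adjusted p from 0.759 to 0.989 by edgeR), and their groups overlapped. Aurkaip1 had 35.7, 43.5 and 38.3 CPM in controls and 34.5, 38.6 and 33.0 CPM in mutants, and Dap3, a GTP-binding subunit, had 58.0, 63.5 and 56.1 CPM in controls and 66.6, 60.6 and 60.3 CPM in mutants.

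Factors that build, use and feed the mitochondrial ribosome were listed next. Of 26 assembly and ribosomal RNA modification genes, 0 were called, with 19 above 0, 7 below and a median log2 fold change of 0.080. Over all tested genes, 8293 were above 0 and 8520 below. Rbfa, which matures the small subunit, had 25.5, 28.2 and 25.2 CPM in controls and 29.4, 31.3 and 29.8 CPM in mutants (0.20, adjusted p = 0.567 from edgeR). All mutants were higher there, as they were for Dhx30, a helicase of mitochondrial RNA granules (0.14, adjusted p = 0.647), while Ftsj2, a ribosomal RNA methyltransferase, was lower in all mutants (-0.26, adjusted p = 0.655). In this list the groups did not overlap for 5 of 26 genes with mutants higher and for 2 with mutants lower. Over all tested genes these shares were 6.83% and 7.62%, and the list was not tested as a set. Of 16 translation factors, 0 were called, and the median was 0.010. Rmnd1, which mitochondrial translation needs, Oxa1l, which inserts new proteins into the inner membrane, and the elongation factor Gfm1 had the lowest p among them, with log2 fold changes of 0.21, -0.14 and 0.087 and adjusted p from 0.756 to 0.853 by edgeR.

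Of 15 genes for mitochondrial RNA synthesis and upkeep, 0 were called, and the median log2 fold change was 0.054. Tfb2m, which opens the promoter of mitochondrial DNA for its RNA polymerase, had 8.27, 12.3 and 13.1 CPM in controls and 6.99, 7.43 and 7.57 CPM in mutants. The mutants were all lower, and control 1 was closest to them (log2 fold change -0.61, SE 0.17, unadjusted p = 0.00599, adjusted p = 0.326 from edgeR). Slirp, an RNA-binding partner of Lrpprc, and Ssbp1, which binds single-stranded mitochondrial DNA, had 0.14 and 0.14 (adjusted p = 0.760 and 0.768).

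The ribosomal RNAs, encoded in mitochondrial DNA, were the remaining parts of the ribosome. Of them mt-Rnr1, the RNA of the small subunit, rose from 285, 363 and 277 CPM in controls to 555, 520 and 506 CPM in mutants. All mutants were above all controls, with a log2 fold change of 0.77 (SE 0.12, 95% interval 0.52 to 1.03, adjusted p = 0.0389 from edgeR). mt-Rnr2, the RNA of the large subunit, had 460, 619 and 389 CPM in controls and 594, 652 and 599 CPM in mutants, and control 2 lay among the mutants (0.33, adjusted p = 0.604 from edgeR). The difference between these 2 genes was not tested. The call of mt-Rnr1 was lost when any library but control 2 was left out, with an adjusted p of 0.118 without control 1, 0.108 without control 3, 0.116 without mutant 1, 0.188 without mutant 2 and 0.108 without mutant 3 by edgeR. The log2 fold change in these 5 fits was 0.72, 0.71, 0.74, 0.79 and 0.80 in the same order, close to the value with all libraries. Libraries were made from messenger RNA captured on oligo-dT beads, so that these levels are those of the captured part of each ribosomal RNA.

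Markers of other cell types differed between the groups in part, and their part in the values above was not tested. All 5 tendon markers were below 0, with 1 called (Tnmd, log2 fold change -0.81, adjusted p = 0.0374 from edgeR), and they summed to 2448 to 2604 CPM in controls and 1355 to 1573 CPM in mutants. All 7 blood markers were below 0, with 0 called and sums of 550 to 1590 CPM against 290.5 to 430 CPM. All 8 bone markers were above 0, with 0 called and sums of 373 to 1591 CPM against 1432 to 2413 CPM. Of 5 endothelial markers, 4 were above 0 and 0 were called, with sums of 719 to 749 CPM against 724 to 816 CPM.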

How the data were processed

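RNA of E18.5 growth plate cartilage was measured in 3 control and 3 mutant libraries, grouped by the genotype labels. The authors captured messenger RNA with a stranded kit, sequenced single-end reads of 50 bases, trimmed them with Trim Galore 0.6.4, mapped them to GRCm38 with STAR 2.6.1d and counted them per gene with featureCounts 1.6.4, per the file headers without strand and leaving out reads on several genes. The authors deposited these numbers as raw counts for each gene and library, and all columns of sample values were used.

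From the counts, edgeR 4.0.16 (R 4.3.3) was run on the 16813 genes that passed filterByExpr (minimum count 10, minimum total 15), with TMM factors, the quasi-likelihood test and Benjamini-Hochberg adjustment, and calls were made at an adjusted p under 0.05. The biological coefficient of variation was 0.131. The study's own model used litter, which the labels do not give. RPKM was TMM-scaled CPM divided by the exon length in the count tables. Replicate libraries differed by more than sampling noise (chi-square statistics of 10.6 to 40.8 for each degree of freedom). Members, lists and alternatives were chosen with earlier results of these data known, so that no test over a list was made. Named are the 5 members with the lowest p in each direction, the 4 highest and 4 lowest levels per subunit, members whose symbol and place differ with their paralogs, untested members and, in other lists, called genes and the 3 lowest p. Marker and member symbols were matched by name and 5 listed genes by identifier. Exon overlaps, biotypes and principal transcripts (the longest APPRIS principal one) came from GENCODE M21 and the count tables, with 54 of 78 members of equal span in both. Alternatives were DESeq2 1.42.0, limma-voom (limma 3.58.1), upper-quartile and DESeq2 size factors, no and a stricter filter (10 counts in every library), a replicate block, each library left out, and other subunit assignments. Levels per unshared base and per principal transcript, and the settings for mt-Rnr1, were added after the values were seen. The code was tested on simulated counts. Figures were drawn with matplotlib 3.10.9.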

Additional observations from a re-analysis of the deposited data

How the results depend on the processing

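The count of 0 called members was the same under all alternatives run, and at an unadjusted p under 0.05 there were 0 to 3. Over all genes, 32 were called in edgeR, 259 without the low-count filter, 19 with limma-voom, 193 with DESeq2 and 3 with the replicate number as a block. Leaving out each library in turn gave 3 to 17 calls over all genes. Median log2 fold changes of the large subunit were then between -0.016 and 0.029 and those of the small subunit between -0.018 and 0.047, with both signs in each. With Mrps18a and Mrps30 counted in the large subunit and Mrps36 left out, the medians were 0.0098 and 0.024, and without members that share exon bases they were 0.011 and 0.017. For 15 named members, direction and side of the threshold held in 105 of 105 fits with another method, and the direction turned in 4 of 90 fits with a library left out. These were Mrps30 (-0.11 to 0.11), Mrps36 (-0.20 to 0.038) and Mrps18a, where fits ran from -0.034 to 0.047 and also gave -0.0015. The causes were not tested. Same-numbered libraries of the groups did not deviate together (correlations -0.127, 0.0070 and -0.0953), and no library correlated best with its own number, so that replicate numbers were not taken as pairs. With the block, mt-Rnr1 had an adjusted p of 0.136 (edgeR), and it was called in the other fits that kept all libraries. At these depths each tested member had at least 131 counts in every library.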
